A study of Homo sapiens with 32 samples.

Results

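Chromatin loops called after sorbitol in wild-type HEK293 cells were set against those called after sorbitol in HEK293 cells labelled eGFP-YAP. The wild-type sorbitol list held 5906 loops and the eGFP-YAP sorbitol list 5577, together 11483 of the 45629 loops in the 4 deposited lists. Anchors were sorted, and loops matched when they lay on one chromosome and both anchors were within 10 kb. This gave 1431 loops common to both lists, which is 24.2% of the wild-type list (95% interval 23.2 to 25.3) and 25.7% of the eGFP-YAP list (24.5 to 26.8). The remaining 4475 loops were in the wild-type list only and 4146 in the eGFP-YAP list only, so the lists held 10052 distinct loops.

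Both lists come from in situ Hi-C, which ligates DNA ends that lie close together in the nucleus and counts the joined pairs. The cells are labelled HEK293, a human embryonic kidney line, although the culture protocol names HEK293T. Wild-type cells and cells labelled with the genotype eGFP-YAP each received 200 mM sorbitol for 1 h, and untreated cells of each served as controls. The labels give 3 wild-type and 4 eGFP-YAP replicates treated with sorbitol for 1 h. A separate wild-type time course also includes 1 sample at 200 mM for 1 h. Which samples were pooled into each list is not stated. Each condition has 1 list, and no list carries a replicate. Differences between lists therefore have no replicate check and no test was made. The labels give neither the promoter of the fusion nor whether the line is 1 clone. The wild-type lists are named after Phanstiel and the eGFP-YAP lists after Cai, with no explanation, so genotype and source cannot be told apart. Loop lists hold no transcripts, so the cell identity could not be checked against markers. Intervals are Wilson intervals for shares and order-statistic intervals for medians, and they cover counting error only. Neighbouring loops are not independent.

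Loops in interphase chromatin are made in large part by cohesin, a ring complex that extrudes DNA until it meets the protein CTCF. CTCF stops cohesin best when the motifs at the loop's ends point towards each other. Gene starts can also contact each other without such a pair. Sorbitol draws water out of cells, and hyperosmotic stress of this kind drives the co-activator YAP, which binds DNA through TEAD factors, into nuclear condensates.

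The sequences below show the kinds of anchor that the common loops held, first CTCF motifs and then gene starts. Each CTCF sequence is read 5′ to 3′ on the motif's own strand in hg38, with the 14 motif bases in capitals and 20 bases of flank on each side, and the coordinates are those of the capitals. The chromosome 11 pair lies in a common loop of 425 kb whose motifs face each other (plus strand on the left, minus strand on the right). The chromosome 7 motif lies in the HOXA9 anchor of a common loop of 1305 kb, the chromosome 15 motif in the ASB7 anchor of a common loop of 375 kb and the chromosome 1 motif in the MATN1 anchor of the longest common loop. This chromosome 1 motif lies in the right anchor at its wild-type position alone, and on the plus strand it points out of the loop. The last sequence is shown for contrast and lies at PTDSS2, in an anchor of an eGFP-YAP-only loop.
chr11:130435120-130435133, plus strand, 1 mismatch: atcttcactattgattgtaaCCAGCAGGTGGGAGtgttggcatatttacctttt
chr11:130862164-130862177, minus strand, 1 mismatch: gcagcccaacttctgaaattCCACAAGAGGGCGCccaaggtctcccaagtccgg
chr7:27161136-27161149, minus strand, 0 mismatches: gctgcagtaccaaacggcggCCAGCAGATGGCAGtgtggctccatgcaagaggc
chr15:100627983-100627996, plus strand, 0 mismatches: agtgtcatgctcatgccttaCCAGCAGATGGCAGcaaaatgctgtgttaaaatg
chr1:30719393-30719406, plus strand, 0 mismatches: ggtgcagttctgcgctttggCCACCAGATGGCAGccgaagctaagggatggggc
chr11:448424-448437, minus strand, 0 mismatches: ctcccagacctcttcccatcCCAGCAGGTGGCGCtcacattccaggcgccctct

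The promoters shown next belong to 2 common loops that join one gene start to another, ADSS2 with DESI2 on chromosome 1 and TSPAN17 with FGFR4 on chromosome 5. They are RefSeq promoters (GRCh38.p14, 250 bases before to 50 bases after the start, on the gene's strand), and all 4 lie inside the anchors of both lists. Capitals mark matches to the SP box GGGCGG and to the TEAD word GGAATG on either strand. The ADSS2 and DESI2 promoters held 2 SP boxes each and the TSPAN17 and FGFR4 promoters 7 each, and the FGFR4 promoter also held 1 TEAD word.
ADSS2, chr1:244452011-244452310, minus strand: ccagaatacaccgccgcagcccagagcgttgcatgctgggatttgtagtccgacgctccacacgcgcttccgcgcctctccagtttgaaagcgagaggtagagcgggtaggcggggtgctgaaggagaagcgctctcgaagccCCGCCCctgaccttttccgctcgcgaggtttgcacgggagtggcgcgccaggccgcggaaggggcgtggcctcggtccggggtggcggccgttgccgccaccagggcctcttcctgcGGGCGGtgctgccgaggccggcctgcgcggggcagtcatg
DESI2, chr1:244652876-244653175, plus strand: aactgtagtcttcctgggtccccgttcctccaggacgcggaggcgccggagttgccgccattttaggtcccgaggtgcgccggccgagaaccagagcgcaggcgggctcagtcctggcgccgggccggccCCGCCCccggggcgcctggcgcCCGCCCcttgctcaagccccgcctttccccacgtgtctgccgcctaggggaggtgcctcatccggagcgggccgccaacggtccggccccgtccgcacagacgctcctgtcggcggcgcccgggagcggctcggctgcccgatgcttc
TSPAN17, chr5:176647234-176647533, plus strand: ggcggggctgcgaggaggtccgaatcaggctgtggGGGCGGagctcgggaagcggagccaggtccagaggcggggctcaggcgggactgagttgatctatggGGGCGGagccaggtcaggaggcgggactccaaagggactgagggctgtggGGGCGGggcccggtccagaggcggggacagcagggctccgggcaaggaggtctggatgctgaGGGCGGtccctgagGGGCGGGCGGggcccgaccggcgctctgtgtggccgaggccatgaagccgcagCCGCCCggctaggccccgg
FGFR4, chr5:177086665-177086964, plus strand: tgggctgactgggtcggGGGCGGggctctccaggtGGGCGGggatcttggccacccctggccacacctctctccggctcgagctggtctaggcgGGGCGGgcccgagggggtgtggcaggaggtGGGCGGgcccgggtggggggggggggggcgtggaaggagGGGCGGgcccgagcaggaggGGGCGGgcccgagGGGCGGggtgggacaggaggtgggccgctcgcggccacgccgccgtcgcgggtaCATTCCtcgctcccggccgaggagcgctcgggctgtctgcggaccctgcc

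The first question was how closely the lists agreed on where a common loop lies. Both anchors fell in the same 5 kb bins in 269 of the 1431 pairs (18.8%), the larger offset was 5 kb in 772 (53.9%), and it was 10 kb in 390 (27.3%). The offsets had no preferred side. The left anchor of the eGFP-YAP loop lay 5 kb before its wild-type partner in 311 pairs and 5 kb after it in 298, and the right anchor in 305 and 300. Common loops were longer in wild type in 513 pairs, longer in eGFP-YAP in 503 and of equal span in 415. Pairs just inside the 10 kb limit (n = 390) had a median wild-type span of 205 kb and a median wild-type score percentile of 62.2. Wild-type loops just outside it, at 15 kb (n = 257), had 200 kb and 54.2. A wider limit of 50 kb gave 2853 wild-type loops (48.3%) and 2793 eGFP-YAP loops (50.1%) with a neighbour in the other list.

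The overlap stayed near this level at equal list length. With the 5577 highest-scoring wild-type loops against the 5577 eGFP-YAP loops, 1396 matched (25%). The untreated lists of the same lines, shortened in the same way to 5577 loops each, matched in 2384 wild-type loops (42.7%) and 2382 eGFP-YAP loops (42.7%). Over the whole control lists the shares were 40.2% (of 15180 wild-type loops) and 32.2% (of 18966 from eGFP-YAP). The intervals of the sorbitol and control shares at equal length did not overlap, but they cover counting error over loops only and are no test between conditions. The shortened control lists are the highest-scoring part of far longer lists, whereas the sorbitol lists are whole or nearly whole, and within the sorbitol lists the matched share went up with score. When both sorbitol lists were cut to their upper 50% by score, 25.7% of the wild-type and 27.2% of the eGFP-YAP loops matched. The part of score selection in the difference was not tested. The number of reads behind each list is unknown.

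Common loops were the higher-scoring and the shorter loops of each list. The deposited peak score has a scale of its own in each list, so loops were ranked within a list and the rank given as a percentile. The median percentile of common loops was 67.5 (65.2 to 69.8) in the wild-type list and 63.3 (61.1 to 66.3) in the eGFP-YAP list. It was 44.3 (43.0 to 45.6) for wild-type-only loops and 45.4 (43.8 to 47.0) for eGFP-YAP-only loops. Read against 24.2% over the whole list, 10.7% of the lowest-scoring 10% of wild-type loops were common and 38.9% of the highest-scoring 10%. In the eGFP-YAP list, against 25.7%, the share went from 14.7% in the lowest 10% to 42.5% in the highest. A high score in one list therefore left most loops without a match in the other.

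Across the 1431 pairs the percentiles of the lists had a Spearman rho of 0.609, a description of pairs that were selected for being called in both. The median difference within a pair was 14.7 percentile points. There were 111 pairs in the upper 10% of both lists, 759 in the upper 50% of both and 309 in the lower 50% of both.

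The median span was 190 kb (180 to 200) for common loops at the positions of either list. It was 225 kb (215 to 230) for wild-type-only loops and 245 kb (240 to 255) for eGFP-YAP-only loops. Long loops were seldom common. Of wild-type loops under 100 kb, 29.4% were common, against 12.5% (7.72 to 19.6) of the 120 loops of 1 Mb or more. The shares in the eGFP-YAP list were 33.6% and 8.38% (5.14 to 13.4, n = 179). Score and span worked against each other here, since loops of higher score were longer: the median span was 135 kb in the lowest 10% of the wild-type list and 330 kb in the highest. Within the upper 50% of the wild-type list by score, common loops had a median span of 220 kb and wild-type-only loops 280 kb. In the lower 50% the medians were 130 and 185 kb.

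**Figure D1:**
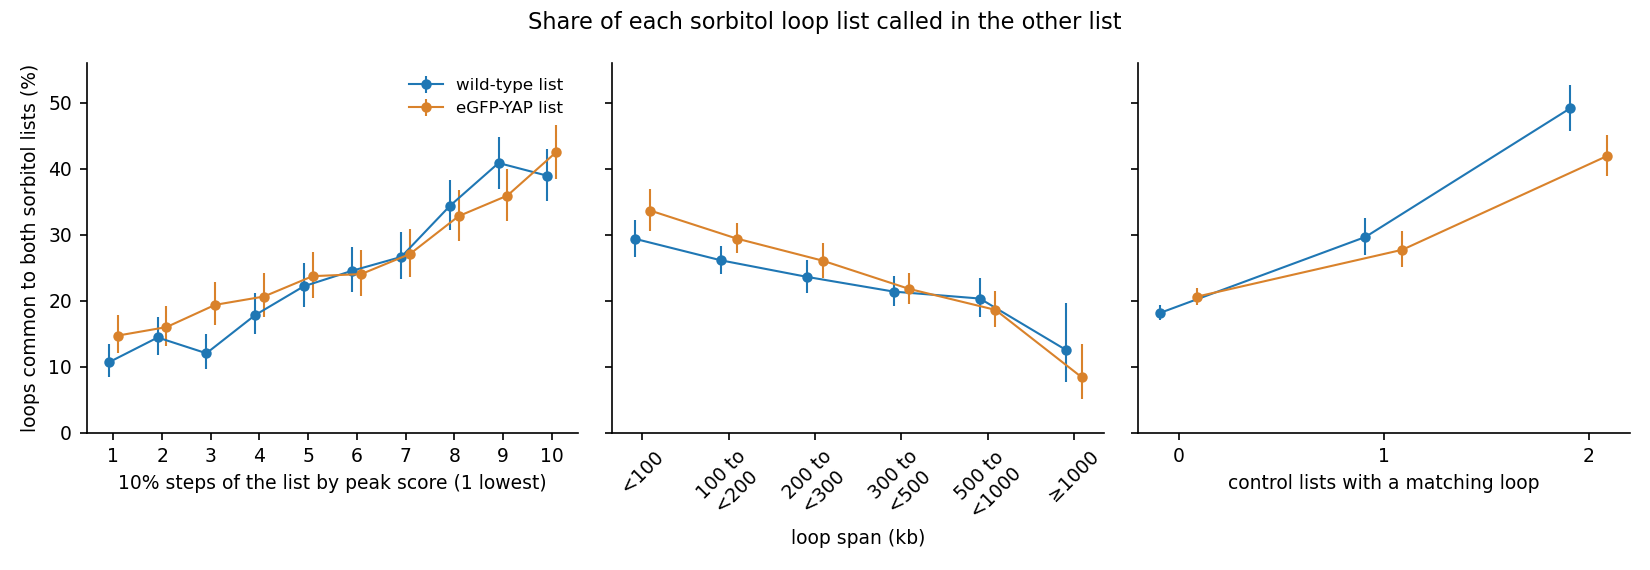
Percent of each sorbitol list that was common to both lists (y axis) by peak score in steps of 10% of the list, by loop span in kb and by the number of control lists with a matching loop. Points are shares and bars Wilson 95% intervals over loops, blue for the wild-type list and orange for the eGFP-YAP list. The share goes from 10.7% to 38.9% over the score steps in wild type and, for eGFP-YAP, from 14.7% to 42.5%, and it goes down with span in both.

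No common loop was 2 Mb or longer (0 of 1431, which allows a share of up to 0.268%), while 6 wild-type-only loops (0.134%) and 7 eGFP-YAP-only loops (0.169%) were. These shares lie under that bound, so a difference between the classes was not detectable at these counts. The longest wild-type-only loop spanned 4755 kb on chromosome 7, between chr7:57655001-57660000 and chr7:62410001-62415000, with 253 kb of unsequenced reference between its anchors. Loops over at least 10 kb of unsequenced reference made up 3 of the 1431 common loops, 30 wild-type-only loops (0.67%) and 17 eGFP-YAP-only loops (0.41%). Among loops in the upper 1% of their list by score, they were 1 of 19 common, 8 of 40 wild-type-only and 5 of 36 eGFP-YAP-only loops.

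Anchors of common loops held gene starts more often than the other anchors. A protein-coding gene start lay in 30.2% (28.5 to 31.9) of the 2862 common anchors at their wild-type positions and in 34.4% (32.7 to 36.2) at their eGFP-YAP positions. The share was 18.5% (17.7 to 19.3) of wild-type-only anchors and 23.6% (22.7 to 24.5) of eGFP-YAP-only anchors. In all sequenced 5 kb bins of the genome it was 3.07%, and in the anchors of the control lists 5.74% in wild type and 7.70% in eGFP-YAP. The order held in the upper and the lower 50% of each list by score. In the upper 50% of the wild-type list, common anchors stood at 30.3% and wild-type-only anchors at 21.9%, and in the lower 50% at 29.9% and 15.8%. The eGFP-YAP list gave 31.5% against 23% above and 39.4% against 24.1% below.

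Loops that join gene start to gene start showed this most. They were 199 common loops (13.9%) at wild-type positions and 287 (20.1%) at eGFP-YAP positions, and 109 common loops had gene starts in both anchors of both lists. Of the wild-type-only loops 320 (7.15%) were of this kind, and of the eGFP-YAP-only loops 456 (11%). Seen from the lists, 38.3% of wild-type loops with gene starts in both anchors were common, against 31.4% of those with a start in one anchor and 19.6% of those with none. The same shares in the eGFP-YAP list were 38.6%, 28.3% and 21.7%, around the 25.7% of the whole list.

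At the same 1431 loops the bins given by the lists differed in their gene starts. Of the 2862 common anchors, 583 held a gene start at both positions, 280 at the wild-type position alone and 402 at the eGFP-YAP position alone. For the CTCF motif the counts were 535, 261 and 389. The lists placed 1645 of these anchors in different bins. Gene starts 5 kb outside the listed bin were found at 16.6% of common anchors at wild-type positions and 14.9% at eGFP-YAP positions, and at 20 kb into the loop the shares were 6.29% and 6.39%.

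**Figure D2:**
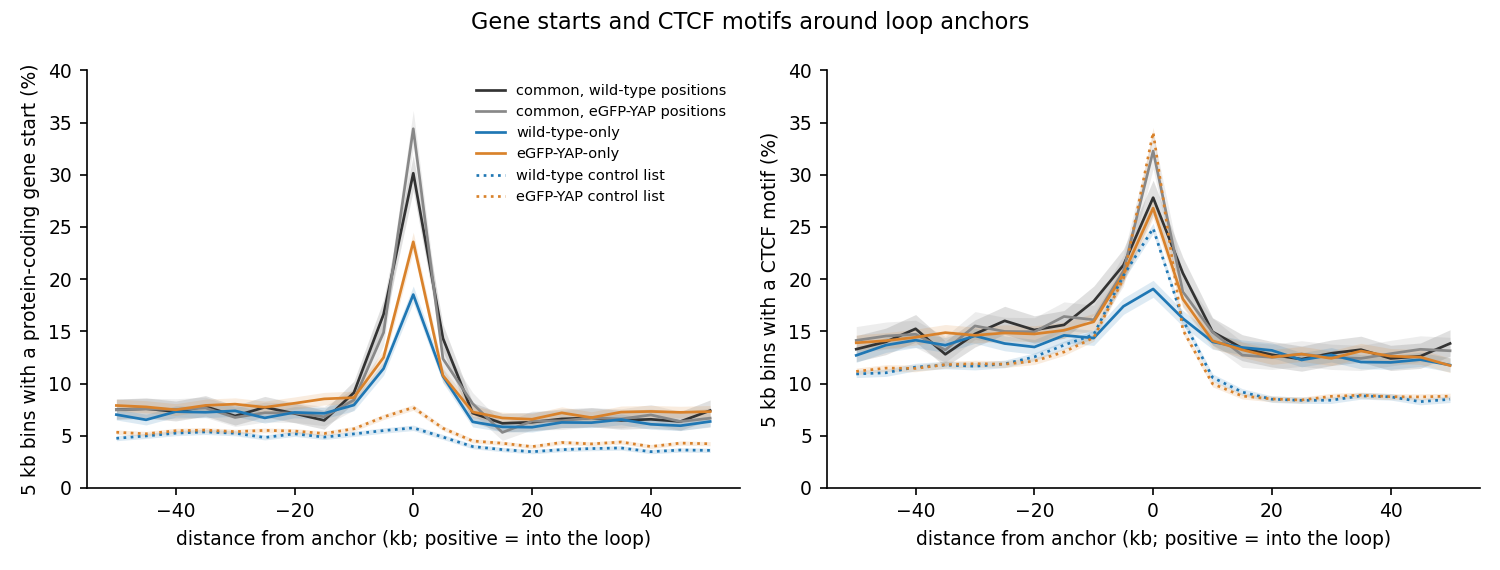
Percent of 5 kb bins with a protein-coding gene start (left) or a CTCF motif (right) at fixed distances from loop anchors, in kb, with positive distances pointing into the loop. Lines are classes of sorbitol loops and, dotted, the whole control lists, and shading is the Wilson 95% interval. Gene starts peak at the anchor at 34.4% and 30.2% for common loops, 23.6% for eGFP-YAP-only and 18.5% for wild-type-only loops, and stay under 8% in the control lists.

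The CTCF consensus, a motif of 14 bases read on either strand and allowed 1 mismatch, was present in 27.8% (26.2 to 29.5) of common anchors at wild-type positions and 32.3% (30.6 to 34.0) at eGFP-YAP positions. It was in 19.1% (18.3 to 19.9) of wild-type-only and 26.8% (25.9 to 27.8) of eGFP-YAP-only anchors, and in 8.69% of all 5 kb bins. Both anchors held a motif in 132 common loops (9.22%) at wild-type positions and 209 (14.6%) at eGFP-YAP positions. Orientation was read from loops in which the motifs of an anchor lay all on one strand. The pairs faced each other in 73 of 117 common pairs (62.4%, 53.4 to 70.6) at wild-type positions and in 134 of 173 (77.5%, 70.7 to 83.0) at eGFP-YAP positions. The wild-type-only loops gave 80 of 164 (48.8%, 41.2 to 56.4) and the eGFP-YAP-only loops 243 of 356 (68.3%, 63.3 to 72.9). With no mismatch allowed, 6.64% of common anchors at wild-type positions, 3.75% of wild-type-only and 6.90% of eGFP-YAP-only anchors held the motif. With 1 mismatch, the intervals of common anchors at wild-type positions and of eGFP-YAP-only anchors already overlapped. No value without mismatch was computed for common anchors at eGFP-YAP positions. A motif match is a description of the letters and does not show that CTCF was bound.

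A common loop had a partner in a control list more often than a loop of one list. At wild-type positions, 687 of the 1431 common loops (48.0%, 45.4 to 50.6) matched a loop in at least one control list, and 382 (26.7%) matched one in both. The shares with any partner were 25% (23.8 to 26.3) for wild-type-only and 31.9% (30.5 to 33.3) for eGFP-YAP-only loops. Those with a partner in both control lists were 8.83% and 13.6%. Loops with a partner in both control lists were common in 49.2% of the wild-type list and 41.9% of the eGFP-YAP list. Loops with no control partner were common in 18.1% and 20.6%. Wild-type-only loops matched the wild-type control list in 16.1% and the longer eGFP-YAP control list in 17.7%. eGFP-YAP-only loops matched the wild-type control list in 17.9% and the eGFP-YAP control list in 27.6%.

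Gene starts and CTCF motifs divided along this line. Among common loops without a control partner, 41.6% (39.1 to 44.1) of anchors at wild-type positions and 48.1% (45.5 to 50.6) at eGFP-YAP positions held a gene start, and 18.3% and 18.2% a CTCF motif. Among common loops with a control partner, gene starts were at 17.8% and 20.1% of anchors and CTCF motifs at 38.1% and 47.1%. Wild-type-only loops without a partner had gene starts at 20.2% of anchors and CTCF motifs at 16.7%, and with a partner 13.5% and 26.2%. The eGFP-YAP-only loops had 28.0% and 19.6% without a partner and 14.1% and 42.2% with one. Among loops with no control partner, then, gene starts separated common from one-list-only anchors in both lists, and CTCF motifs stood between 16.7% and 19.6% of anchors in all classes.

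**Figure D3:**
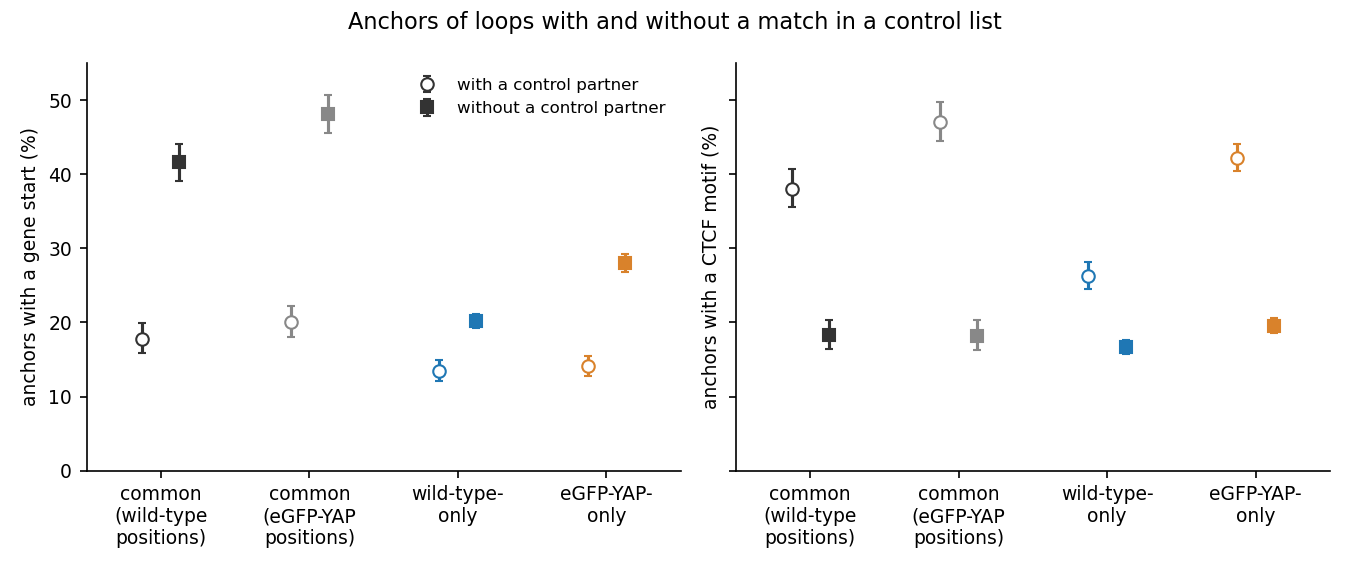
Percent of anchors with a protein-coding gene start (left) or a CTCF motif (right), for loops with (open circles) and without (filled squares) a matching loop in a control list, with Wilson 95% intervals. Common loops are shown at the positions of each list. Without a control partner, gene starts reach 41.6% and 48.1% in common loops against 20.2% and 28.0% in loops of one list, while CTCF motifs lie between 16.7% and 19.6%.

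The highest-scoring common loops with gene starts in both anchors of both lists lay in the same 5 kb bins in both. This choice of loops favours identical bins, since a gene start falls in a single bin. ADSS2, an adenylosuccinate synthase of purine synthesis, was joined over 200 kb to DESI2, a deSUMOylating isopeptidase (score percentile 98.5 in the wild-type list and 99.3 in the other), and this loop also matched the eGFP-YAP control list. SEC14L5 was joined to EEF2KMT, a methyltransferase of elongation factor 2, over 140 kb (98.1 and 98.6). On chromosome 6 the anchor of WDR27 and C6orf120 met the anchor shared by PSMB1, a proteasome subunit, and TBP, the TATA-binding protein, over 850 kb (99.4 and 97.0). ZNRF3 and KREMEN1, both of them membrane proteins that dampen Wnt signalling, were joined over 190 kb (95.7 and 98.3). TSPAN17, a tetraspanin, and FGFR4, a fibroblast growth factor receptor, were joined over 440 kb (94.8 and 97.9). Of these 5 loops, the last 4 matched no loop of either control list.

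The other 5 loops of this kind came from chromosomes X, 2, 21, 19 and 3. GTPBP6 and SLC25A6, a mitochondrial ADP/ATP carrier, were joined over 1075 kb (95 in wild type and 98.1 in eGFP-YAP). The SMPD4 and MZT2B anchor met that of CCDC115 and IMP4 over 160 kb (94.1 and 95.5), and this loop was in both control lists. CFAP410 and SUMO3, a ubiquitin-like modifier, were joined over 480 kb, with the 87.8 percentile in wild type against 99.5 in eGFP-YAP. DPP9, a dipeptidyl peptidase, met FEM1A over 70 kb (93.7 and 89.2, in both control lists). The anchor of LSM3 and XPC, a sensor of DNA damage, met CCDC174 over 475 kb (95.2 and 87.5). These 10 loops thus ranged from 70 to 1075 kb, and 7 of the 10 had no control partner. Of all common loops with gene starts in both anchors, 149 of 199 had none at wild-type positions and 215 of 287 at eGFP-YAP positions.

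Other common loops ranked high by score alone. A chromosome 18 loop joined SEH1L, a nuclear pore protein, over 565 kb to an anchor that lay at the AFG3L2 start in eGFP-YAP and one bin away in wild type (99.5 and 98.8). The chromosome 15 loop between the bodies of ASB7 and LRRK1 (99 and 98.3) and the convergent chromosome 11 loop (98.3 and 99.4) were in both control lists. One of the 8 shortest common loops joined the body of TMEM39A to the start of TIMMDC1, a factor of mitochondrial complex I assembly, over 35 kb on chromosome 3 (52.1 and 64.2).

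High-scoring loops of one list also joined gene starts. In the wild-type list only, the anchor of HNRNPA2B1, an RNA-binding protein, and CBX3, a heterochromatin protein, met HOXA10 over 980 kb (percentile 99.7). PRIMPOL, a primase-polymerase, met CFAP97 over 560 kb (99.6), and NDC1, a nuclear pore protein, met TMEM59 and TCEANC2 over 215 kb (99.2). YWHAB, a 14-3-3 protein, met STK4, a kinase of the Hippo pathway, over 80 kb (98.6). TMEM43 met CCDC174 over 525 kb (98.4). That CCDC174 anchor is also the anchor of the common LSM3 and XPC loop, so in wild type the same bin had partners at both places.

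In the eGFP-YAP list only, ATXN2L met NFATC2IP over 130 kb (percentile 99.1), and the anchor of TMEM52 and CALML6 met PRXL2B over 670 kb (99.1). TPRG1 was in a loop of 1205 kb (98.5) that both control lists held. The anchor of PSMD13, a proteasome subunit, and SIRT3, a mitochondrial deacetylase, met PTDSS2, a phosphatidylserine synthase, over 210 kb (98.1), and LENG9 met ZNF784 over 1160 kb (97.6). Of the 10 gene-start loops of one list named here, 9 had no partner in either control list. Over all loops with gene starts in both anchors, 281 of 320 wild-type-only and 388 of 456 eGFP-YAP-only loops had none, so the named loops do not stand out.

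Loops of one list shared some anchors with the other list without a matching loop. Of the wild-type-only loops, 699 (15.6%) had both anchors within 10 kb of some eGFP-YAP sorbitol anchor, 1989 (44.4%) had one such anchor and 1787 (39.9%) had none. By anchor this was 37.8%, against 6.77% of all 5 kb bins. Of the eGFP-YAP-only loops, 830 of 4146 had both anchors at wild-type sorbitol anchors, 42.6% one and 37.4% none, and by anchor 41.3% against 7.29% of bins. Of the loops with both anchors shared, 377 wild-type-only (53.9%) and 446 eGFP-YAP-only loops (53.7%) had a loop of the other list within 50 kb at both anchors, so a new pairing and a shifted loop cannot be told apart there. Gene starts went with this sharing. In wild-type-only loops they were at 34.6% of anchors where both anchors were shared, 19.0% where one was and 11.8% where neither was. In eGFP-YAP-only loops the shares were 35.4%, 23.8% and 17.0%. Where both anchors were shared, the wild-type share (32.2 to 37.2) lay above the 30.2% of common anchors, and the eGFP-YAP share (33.1 to 37.7) overlapped the interval of the 34.4% of common anchors.

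Counted by gene, 2538 protein-coding genes started in a wild-type sorbitol anchor and 2745 in an eGFP-YAP sorbitol anchor. The 1066 genes found in both were 42.0% (40.1 to 43.9) of the former and 38.8% (37.0 to 40.7) of the latter. Over all 19970 genes, 12.7% started in a wild-type and 13.7% in an eGFP-YAP sorbitol anchor. A gene needs only one anchor to be shared and a loop needs both, so this overlap cannot be set against that of loops. Of these 1066 genes, 783 (73.5%) started in the anchor of a common loop.

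Some anchors took part in several loops, and these held gene starts more often. In the wild-type sorbitol list 17.9% of bins with 1 loop, 35.0% of those with 2 and 40.8% of those with 3 or more held a gene start, and in the eGFP-YAP list 20.4%, 42.7% and 52.1%. At wild-type positions 8 anchors had 3 common loops each, and 6 of them held a gene start: those of SNAP47, INPP5A, SIK2, PSMG1, the pair DEPDC5 and PRR14L, and the pair DCAF16 and NCAPG. SNAP47 codes for a SNARE protein, SIK2 for a salt-inducible kinase, PSMG1 for a proteasome assembly factor, DEPDC5 for a subunit of a complex that restrains mTORC1 and NCAPG for a condensin subunit.

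INPP5A, an inositol phosphatase gene on chromosome 10, had loops of all 3 classes at one anchor. Its start at chr10:132535001-132540000 had 6 wild-type and 6 eGFP-YAP loops within 10 kb. The 3 common loops reached 380, 290 and 90 kb to the left. Wild type alone had loops to 205 kb (percentile 91.8), where LRRC27 and STK32C start, and to 150 kb (95.5), and another with its far anchor 620 kb to the right (27.4). The eGFP-YAP list alone had loops to 350 kb (97.2), where DPYSL4 starts, to 230 kb and to 135 kb (89.4). Within 700 kb of the INPP5A anchor, 6 of the 12 wild-type-only loops had a right anchor more than 10 kb to its right, and 0 of the 8 common and 0 of the 7 eGFP-YAP-only loops did.

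**Figure D4:**
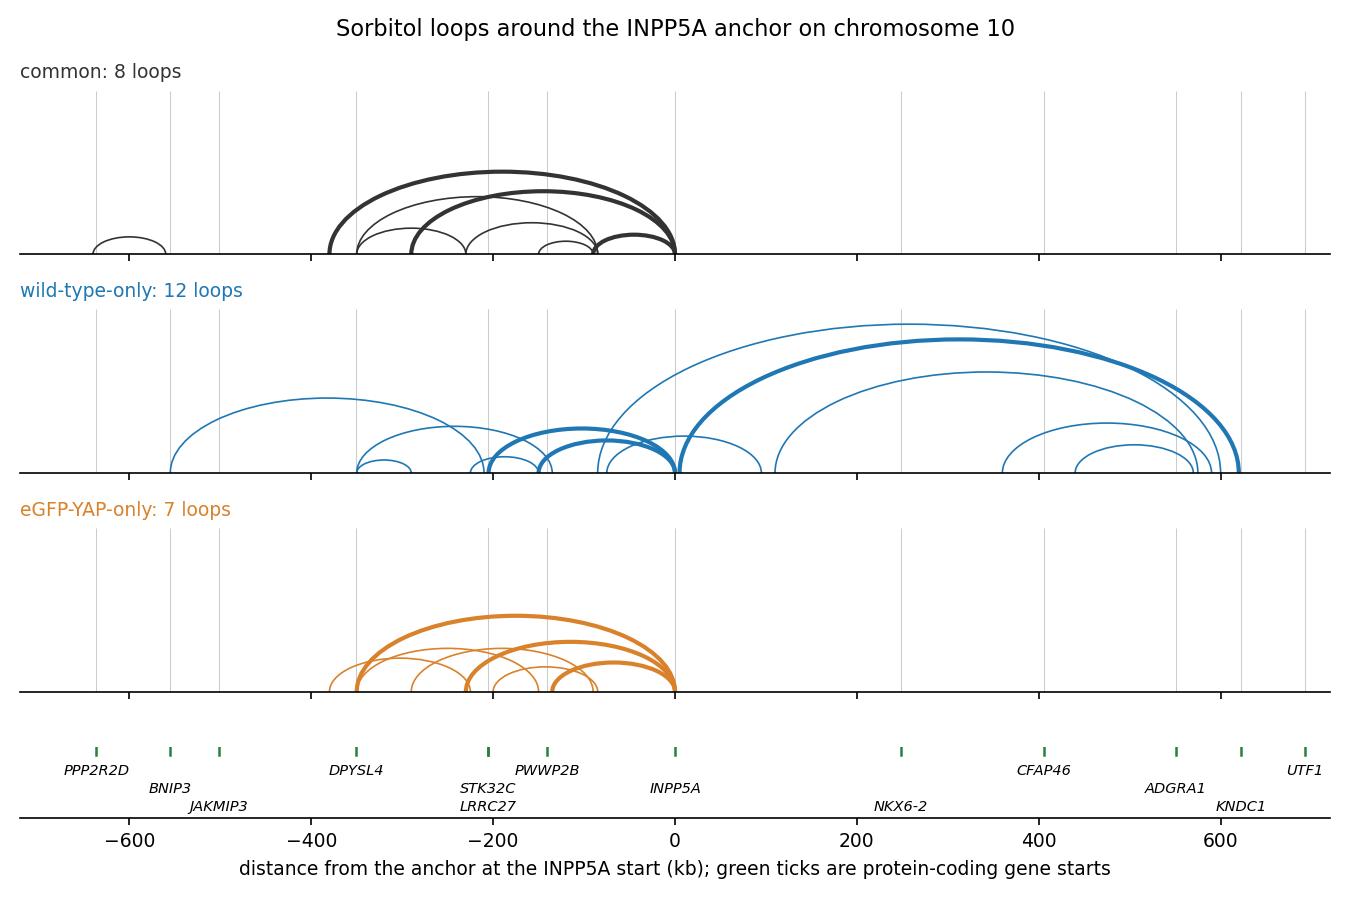
Loops of the sorbitol lists within 700 kb of the anchor at the INPP5A start on chromosome 10, as arcs drawn by distance from that anchor in kb, with thick arcs for loops within 10 kb of the anchor and green ticks for protein-coding gene starts. Arc height is proportional to span. The 8 common and 7 eGFP-YAP-only loops lie to the left of the anchor, while 6 of 12 wild-type-only loops reach to its right.

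Loops clustered along the genome. Of the 3044 windows of 1 Mb, 1873 held a sorbitol loop, and 845 of these (45.1%) held a common loop. Loops of both lists without any common loop were in 471 windows, wild-type loops alone in 270 and eGFP-YAP loops alone in 287. Another common loop had both anchors within 500 kb for 62.6% of common loops, and the same measure within its own class was 87.0% for wild-type-only and 84.1% for eGFP-YAP-only loops, classes that hold more loops. The windows with most common loops were chr10:132000001-133000000 around INPP5A, chr12:56000001-57000000, which holds 39 gene starts including ERBB3, STAT2 and RPL41, and chr6:3000001-4000000 with TUBB2A, TUBB2B and RIPK1, with 8 common loops each. Windows with 7 common loops included chr1:203000001-204000000 with BTG2 and ADORA1 and chr1:227000001-228000000 with SNAP47 and WNT9A.

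Windows that held many loops of one list were set beside their counts in the control lists. In chr6:1000001-2000000, where the forkhead genes FOXC1, FOXF2 and FOXQ1 start, there were 2 common, 20 wild-type-only and 4 eGFP-YAP-only loops, while the control lists had 20 in wild type and 17 in eGFP-YAP. The TLE4 window, chr9:79000001-80000000, had 4 common, 20 wild-type-only and 10 eGFP-YAP-only loops (19 and 10 in the controls). On the eGFP-YAP side, chr2:241000001-242000000 had 7 common, 13 wild-type-only and 19 eGFP-YAP-only loops (12 and 6 in the controls). The histone gene cluster in chr6:27000001-28000000 had 4, 9 and 18 (13 and 18 in the controls). In the chromosome 2 window the eGFP-YAP list thus held more loops after sorbitol and fewer in the controls.

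Where the lists differed by at least 8 loops, the control lists were read for the same direction. Over all 1873 windows with a sorbitol loop, 48.3% made up a larger share of the wild-type control list and 50.6% a larger share of the eGFP-YAP control list. Of 22 windows with 8 or more loops more in wild type, 15 (68.2%) also made up a larger share of the wild-type control list than of the eGFP-YAP control list. Those 22 windows held 341 wild-type and 112 eGFP-YAP sorbitol loops, and 258 and 250 control loops. Of 16 windows with 8 or more loops more in eGFP-YAP, 14 (87.5%) were also larger in the eGFP-YAP control list, with 51 against 218 sorbitol and 102 against 229 control loops. The largest difference was in a chromosome 8 window, with 23 wild-type and 1 eGFP-YAP sorbitol loops against 21 and 17 control loops. The windows were picked by the sorbitol difference and are described after their values were seen. In chr22:19000001-20000000, with 21 gene starts including HIRA and TBX1, the lists had 0 wild-type and 13 eGFP-YAP sorbitol loops and 1 and 20 control loops. In chr15:95000001-96000000, which holds no protein-coding start, 11 wild-type and 0 eGFP-YAP sorbitol loops stood against 3 and 5 control loops.

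Whole chromosomes differed as well. Chromosome 8 had 213 wild-type and 116 eGFP-YAP sorbitol loops, chromosome 13 had 234 and 137, and chromosome 10 had 319 and 213. The reverse was seen on chromosome 19, with 241 and 358, and chromosome 17, with 220 and 315. As shares of the lists, wild type over eGFP-YAP was 1.73 on chromosome 8, 1.61 on chromosome 13 and 0.636 on chromosome 19. The same ratio in the control lists was 0.973, 1.41 and 0.783. Over 23 chromosomes the sorbitol and control ratios had a Spearman rho of 0.472, and the sorbitol ratio against protein-coding starts per Mb had -0.69 (control ratio -0.516), all descriptions of chromosomes that share the same 4 lists. The share of wild-type loops that were common ran from 14.1% on chromosome 13 to 37.3% on chromosome 21, and that of eGFP-YAP loops from 16.0% on chromosome 22 to 38.8% on chromosome 8.

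**Figure D5:**
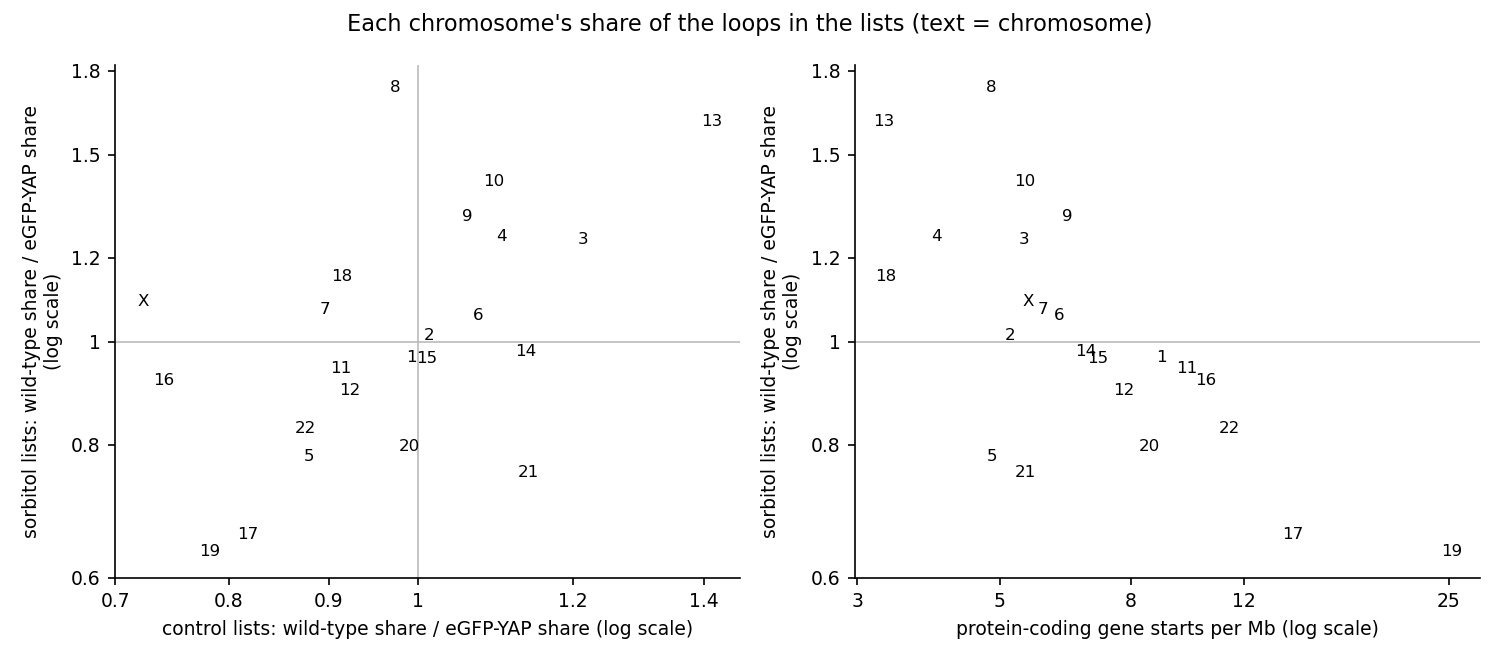
Ratio of each chromosome's share of the wild-type sorbitol list to its share of the eGFP-YAP sorbitol list (y axis, log scale) against the same ratio in the control lists (left, log scale) and against protein-coding gene starts per Mb (right, log scale). Each number or letter is 1 of 23 chromosomes. Chromosomes 8 and 13 lie highest at 1.73 and 1.61 and chromosome 19 lowest at 0.636.

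Gene groups were read against all protein-coding genes, of which 1420 of 19970 (7.11%) started in a common anchor at the positions of either list. Of 30 YAP and TEAD target genes 4 did. CRIM1, which codes for a membrane protein that binds growth factors, met the body of FEZ2 over 235 kb (98.5 in wild type, 79.8 in eGFP-YAP), and IGFBP3, a binding protein of insulin-like growth factors, was in 2 common loops of 1165 and 1250 kb. ARHGEF17 was in a loop of 675 kb (43.3 and 90.9) and BIRC2, an inhibitor of apoptosis, in one of 150 kb (82.0 and 28.6). The CRIM1, BIRC2 and 1165 kb IGFBP3 loops matched the eGFP-YAP control list, and the 1250 kb IGFBP3 loop the wild-type control list. Only the ARHGEF17 loop matched neither. The BIRC2 start lay in the anchor at the wild-type position alone, and the ARHGEF17 start at the eGFP-YAP position alone. Of the targets in no common anchor, F3 and FJX1 started in wild-type anchors alone, and CDC20, AMOTL2 and AJUBA in eGFP-YAP anchors alone. In the untreated lists, 5 of the 30 started in an anchor of the wild-type list and 10 in one of the eGFP-YAP list, against 8.28% and 13.1% of all genes.

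Of 30 genes of the Hippo pathway, including the TEAD factors, 2 started in a common anchor. TEAD2 met SLC17A7 over 80 kb (78.3 and 90.9), and TEAD4 met TSPAN9 over 120 kb (36.7 and 9.71). The TEAD2 loop matched the wild-type control list, and the TEAD4 loop matched neither. STK4 and TEAD1 started in wild-type anchors alone and AMOTL2, DCHS1 and TAOK3 in eGFP-YAP anchors alone. Of 30 genes of osmotic stress and cell volume, 2 started in a common anchor: MAPK14, the p38 kinase that hyperosmotic stress activates, which met SRPK1 over 110 kb (47.0 and 14.5), and KCNMA1, a large-conductance potassium channel, in a loop within its own gene (97.9 and 97.6) that both control lists held. The KCNMA1 start lay in the anchor at the eGFP-YAP position alone. Of these 30 genes, 2 started in a wild-type and 5 in an eGFP-YAP sorbitol anchor, and 3 and 11 in the control anchors. Over all genes the shares were 12.7% and 13.7% (sorbitol) and 8.28% and 13.1% (control).

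Immediate-early and stress-response genes were in common anchors in 6 of 37 cases. DDIT3, a transcription factor of the stress response, met the bodies of CDK4 and TSPAN31 over 230 kb (95.3 and 90.2) and that of GLI1 over 60 kb (14.3 and 13.1). BTG2 met CYB5R1 over 345 kb (64.8 and 63.8), and HSP90AA1 was in 2 common loops of 380 kb and 195 kb. IER5 met STX6 over 70 kb (5.22 and 24.0), and JUND met SSBP4 over 135 kb (68.6 and 54.7). Of the loops named here, that of JUND matched both control lists and the others matched neither. The BTG2 and IER5 starts, and that of HSP90AA1 in the 195 kb loop, lay in the anchor at the eGFP-YAP position alone. The DDIT3 start in the GLI1 loop lay there at the wild-type position alone. In the lists as a whole, 8 of the 37 started in a wild-type and 12 in an eGFP-YAP sorbitol anchor, and 1 and 4 in the control anchors, where all genes stood at 12.7% and 13.7% (sorbitol) and 8.28% and 13.1% (control). JUN and HSP90AB1 were among those in wild type alone, while NR4A2, DUSP1, IER2, DNAJB1 and ZFP36 were among those in eGFP-YAP alone.

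Genes for cohesin, CTCF and other loop factors were in common anchors in 7 of 24 cases. STAG1, a cohesin subunit, met NCK1 over 110 kb (41.0 and 44.7). CTCF met THAP11 over 280 kb (71.9 and 34.9), and YY1 met the body of WARS1 over 135 kb (54.4 and 76.2). MAZ met ALDOA over 265 kb (63.2 and 31.9), and ZNF143 met WEE1 over 125 kb (43.1 and 42.4). NIPBL, the loader of cohesin, was in a loop of 70 kb inside its own gene (29.2 and 2.45). The NIPBL loop matched the wild-type control list, and the other loop-factor loops named here matched neither. The CTCF and MAZ starts lay in these anchors at the wild-type positions alone, and those of ZNF143 and NIPBL at the eGFP-YAP positions alone. Ribosomal protein genes were in common anchors in 12 of 77 cases. The percentiles were 92.4 and 19.7 for RPL6 (start at the wild-type position alone). For RPL23A they were 91.0 and 93.7 (start at the eGFP-YAP position alone, loop also in the eGFP-YAP control list). Of 60 developmental transcription factors 4 were in common anchors, among them FOXC1, IRX3 (96.0 and 85.8) and NKX2-5. FOXC1 met GMDS over 500 kb, and this loop was in both control lists. The IRX3 start lay in the anchor at the eGFP-YAP position alone, and that of NKX2-5 at the wild-type position alone. More of the developmental factors started in control anchors (19 in the wild-type and 20 in the eGFP-YAP list) than in sorbitol anchors (12 and 7). Over all genes the shares were 8.28% and 13.1% in the control lists, which hold more loops, and 12.7% and 13.7% in the sorbitol lists. These lists are small and were described by count alone.

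The promoters of the genes at common anchors were read for short words on either strand. Of 19970 genes, 15316 had a RefSeq promoter, among them 1114 genes that start in a common anchor. The wild-type-only and eGFP-YAP-only sets hold genes that start in such an anchor and in no common one, and a gene can be in both sets. The SP box GGGCGG was in 77.3% (74.7 to 79.7) of the common promoters, 72.5% of promoters at wild-type-only anchors, 72.6% at eGFP-YAP-only anchors and 59.2% of all promoters. The cyclic AMP response element TGACGTCA was in 4.85% (3.73 to 6.27) of common, 4.04% of wild-type-only, 3.16% of eGFP-YAP-only and 2.64% of all promoters. The TEAD word GGAATG was in 9.25% (7.68 to 11.1) of common, 11.1% of wild-type-only, 10.5% of eGFP-YAP-only and 11.7% of all promoters. The AP-1 word TGANTCA was in 3.68% (2.72 to 4.95), 4.73%, 4.66% and 5.75% of the same sets. The word TGGAAA of the osmotic response element was in 15.4% (13.4 to 17.7) of common promoters and 17.4% of all. It was in 12.3% (10.5 to 14.3) at wild-type-only and 13.4% (11.7 to 15.4) at eGFP-YAP-only anchors. For each of these words the interval of the common set overlapped those of both one-list-only sets. The GC content also differed between these sets, with a median of 67.0% in common promoters, 66.0% at wild-type-only anchors, 65.7% at eGFP-YAP-only anchors and 63.0% in all. Not every word followed this order, and the part of GC content in the shares was not tested. A word is not a bound site, and its absence says only that these letters are not in the 300-base window.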

How the data were processed

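Lists were assigned to conditions by their names, and 0 per-sample columns were unmapped. The list names hold "sip-loops", read here as output of SIP, a caller that reads loops from contact maps as image peaks. Its version and settings, the map normalization, the pooling of replicates and the depth are not given in the sources used here. The build names hg38 and GRCh38 come from the submitters' processing notes, and 0 anchors lay outside the hg38 chromosomes. The deposited peak score has no fixed scale and was used as a rank within a list. The deposited contact value, also a score, was left aside. Per the file headers the lists give a probability of enrichment, a fraction, which was at least 0.9 in all loops and was not filtered further.

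Anchors (5 kb bins) were sorted, which reordered 1 sorbitol loop, and matched within 10 kb. Each common loop has 1 partner. Gene starts are 5′ ends of protein-coding genes in GENCODE release 44. Motif and match counting was tested on simulated data. Python 3.11.15, numpy 2.4.6, pandas 2.3.3, scipy 1.17.1 and pysam 0.24.0 were used. No between-condition test was run. Named were the highest-ranked common and one-list-only loops (at most 1 per chromosome), those with gene starts at both ends, the longest and shortest common loop, the fullest windows and anchors, and gene-list members at common anchors. Loops on chromosome 8 were counted and not named. Some further named loops and windows are not reported here. The members, lists and rules were chosen with earlier results of these data known. The alternatives changed the matching distance, list length, anchor width, gene set and motif.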

Additional observations from a re-analysis of the deposited data

How the results depend on the processing

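No paired analysis was possible because the loop lists carry no replicate number, and no replicate could be left out because each list is pooled. Of the values that answer a comparison, 28 stayed within their counting interval under an alternative and 31 moved. Of the others 25 stayed and 50 moved. In the settings run for each, the main one included, common loops had the highest gene-start share (8 settings), the shortest median span (6) and the highest control-partner share (6). With identical anchor bins required, the common loops were 4.55% (wild type) and 4.82% (eGFP-YAP) of the lists, the median span was 150 kb in common and 235 kb in eGFP-YAP-only loops, gene starts were at 47.4% of common, 20.1% of wild-type-only and 25.3% of eGFP-YAP-only anchors, and control partners were found for 29.8% of wild-type-only and 35.7% of eGFP-YAP-only loops. At 25 kb, 35.7% and 37.7% were common, with gene starts at 27.4% of common anchors and control partners for 41.3% of common loops. In the upper 50% of each list, 25.7% and 27.2% were common, median spans were 240 kb in common, 260 kb in wild-type-only and 335 kb in eGFP-YAP-only loops, gene starts were at 27.9% of common and 23.6% of wild-type-only anchors, and control partners were found for 55.9%, 29.3% and 43.2%. These settings change which loops are compared, and the cause of each shift beyond that was not tested. Without loops that had a partner within 50 kb, the median span of eGFP-YAP-only loops was 262.5 kb. Anchors widened by 5 kb on each side, which cover more sequence, held gene starts at 53.8%, 36.0% and 42.1% (common, wild-type-only, eGFP-YAP-only), and starts of all annotated genes, a larger set, gave 39.6%, 26.0% and 32.5%. Common anchors at eGFP-YAP positions, an alternative chosen after seeing the data, gave 34.4%. The wild-type list shortened to 5577 loops moved none of the values that answer a comparison, and the share of wild-type-only loops with a neighbour of their class went from 87.0% to 85.6%.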
